A study of Mus musculus with 25 samples.

Results

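The 10 transcription factor genes described here were chosen by symbol in the platform annotation, out of 18193 genes named on the arrays. Ehf, Elf3, Creb3l1, Grhl2 and Ovol1 are epithelial factors, and Zeb1, Zeb2, Snai1, Snai2 and Twist1 are factors of the epithelial to mesenchymal transition. Together they had 25 of the 45101 probe sets: 5 for Zeb2, 4 each for Ehf, Grhl2 and Zeb1, 2 each for Ovol1 and Snai2, and 1 each for Elf3, Creb3l1, Snai1 and Twist1. The study, which introduced the CellNet platform for scoring engineered cells, measured RNA of 25 mouse samples in 10 groups on 25 Affymetrix arrays. Its comparisons ask how closely induced hepatocytes and induced macrophages match their target tissues, and what a colon environment or the loss of a single regulator does to them.

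Induced hepatocytes (iHeps) were made from C57BL/6J fibroblasts of E13.5 embryos by retroviral Foxa1 and Hnf4a, so every iHep group began as a mesenchymal cell and carries both transgenes. The 2 engrafted iHep arrays hold green fluorescent iHeps sorted after 12 days in colons of Rag2gammac-/- mice that had been injured with dextran sodium sulfate (DSS). The recipients lack mature lymphocytes and keep their own colon cells. Cultured iHeps gave 4 arrays after a lentiviral shRNA against Cdx2, 4 after a scramble shRNA and 3 untransduced arrays, the last labelled as independent lines. The shRNA groups had 2 days of puromycin and a further week of culture. The tissues were colon crypts of 8-week-old Rag2gammac-/- mice (2 arrays), fetal liver of E14.5 C57BL/6J mice (2 arrays) and adult C57BL/6J liver (2 arrays). The adult liver labels conflict: one gives whole liver at 8 weeks and another gives hepatocytes isolated with collagenase at 10 weeks. Induced macrophages came from the C10 pre-B cell line, which is 1 line, with 2 arrays each for an shRNA against Ebf1, an shRNA against Pou2af1 and a scramble shRNA. Estradiol induced the conversion, at 100 nM as given for the scramble samples.

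Epithelial cells hold together through E-cadherin, encoded by Cdh1, and through tight junctions, and they lose both in an epithelial to mesenchymal transition. Zeb1, Zeb2, Snai1 and Snai2 are zinc finger repressors that bind E-box sequences in genes such as Cdh1, and Twist1 is a basic helix-loop-helix factor that acts with them in mesoderm and in migrating cells. Grhl2 and Ovol1 act on the epithelial side, in part by holding down Zeb1, while Elf3 and Ehf are ETS factors of glandular and gut epithelium and Creb3l1 is a membrane-bound factor that acts in secretory cells. Fibroblasts normally express the mesenchymal set.

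Promoter sequences are shown because the mesenchymal repressors recognise the E-box CACCTG. The letters of an epithelial factor and of mesenchymal factors can thus be set side by side. RefSeq promoters (GRCm38.p6) were read for 4 of the 10 genes, and those of the other genes are not shown. The 250 bases before each start are printed with CACCTG, searched on both strands, in capitals. It lies within the broader E-box CANNTG. Elf3 is at chr1:135258473-135258722, minus strand, Zeb2 at chr2:45117443-45117692, minus strand, Snai1 at chr2:167537945-167538194, plus strand and Twist1 at chr12:33957421-33957670, plus strand.
Elf3: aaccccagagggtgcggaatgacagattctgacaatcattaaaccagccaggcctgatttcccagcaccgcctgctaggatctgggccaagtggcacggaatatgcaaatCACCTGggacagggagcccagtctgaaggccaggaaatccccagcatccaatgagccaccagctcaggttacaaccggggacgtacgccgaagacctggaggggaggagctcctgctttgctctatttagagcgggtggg
Zeb2: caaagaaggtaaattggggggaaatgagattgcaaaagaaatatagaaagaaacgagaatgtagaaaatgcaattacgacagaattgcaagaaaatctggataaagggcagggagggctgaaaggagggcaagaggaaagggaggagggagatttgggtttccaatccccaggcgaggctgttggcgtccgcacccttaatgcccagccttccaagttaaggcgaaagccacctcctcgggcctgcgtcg
Snai1: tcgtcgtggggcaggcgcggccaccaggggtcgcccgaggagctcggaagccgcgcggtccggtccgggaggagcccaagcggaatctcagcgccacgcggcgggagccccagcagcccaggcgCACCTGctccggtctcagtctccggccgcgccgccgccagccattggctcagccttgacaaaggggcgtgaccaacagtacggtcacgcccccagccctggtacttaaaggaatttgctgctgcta
Twist1: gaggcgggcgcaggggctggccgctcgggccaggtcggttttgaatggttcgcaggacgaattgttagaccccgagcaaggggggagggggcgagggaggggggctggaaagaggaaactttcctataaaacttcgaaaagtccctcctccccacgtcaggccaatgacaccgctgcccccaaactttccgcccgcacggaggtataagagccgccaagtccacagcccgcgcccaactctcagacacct
Elf3 and Snai1 each held 1 CACCTG, with its first base 140 and 126 bases before the start, and Zeb2 and Twist1 held 0 in this window. Of 32851 promoters of the same length, 17.2% held CACCTG on either strand and 66.2% held CANNTG. These are letter matches, not measured binding sites.

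Values are log2 signals, on which each unit is a doubling, and they were deposited after robust multi-array averaging (RMA). Each gene was read on its brightest probe set, by the mean over the 25 arrays, and signals are compared only within a probe set. A gene was tested where its signal was above the array's 40th percentile (5.52 to 5.80) on at least 2 arrays of the model, and a call is a Benjamini-Hochberg adjusted p under 0.05 from limma over every gene tested. Values after ± are standard errors (SE) of the log2 fold change. Signals at or under that percentile may be background, so fold changes from them can understate a difference. The labels do not say that same-group samples are separate cultures or animals, beyond the independent iHep lines, so a p-value reflects the spread among the arrays, which may be technical.

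Some arrays stood apart within their groups. The mean log2 signal of 7 fibroblast markers was 5.38 on engrafted iHep replicate 1 and 8.52 on replicate 2, against 5.09, 6.97 and 7.38 on the 3 cultured iHep arrays. The 6 leukocyte markers averaged 5.51 and 7.97 on the same engrafted arrays, against 4.84 to 5.02 in cultured iHeps, and the 6 macrophage markers 6.01 and 8.36, against 6.46 to 6.85. The 6 colon epithelium markers averaged 11.10 to 11.90 in engrafted iHeps, 12.73 to 12.76 in colon and 7.72 to 8.18 in cultured iHeps. The 5 goblet cell markers averaged 12.62 and 13.25 in engrafted iHeps, 12.64 to 12.68 in colon and 8.31 to 8.62 in cultured iHeps. The 6 hepatocyte markers averaged 8.53 and 7.90 in engrafted iHeps and 7.03 to 7.27 in colon. They averaged 8.38 to 10.57 in cultured iHeps, against 14.21 to 14.22 in adult liver. Whether the engrafted arrays held RNA of host colon cells was not tested. In these bulk samples fewer cells of a type and less RNA per cell cannot be told apart.

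**Figure D1:**
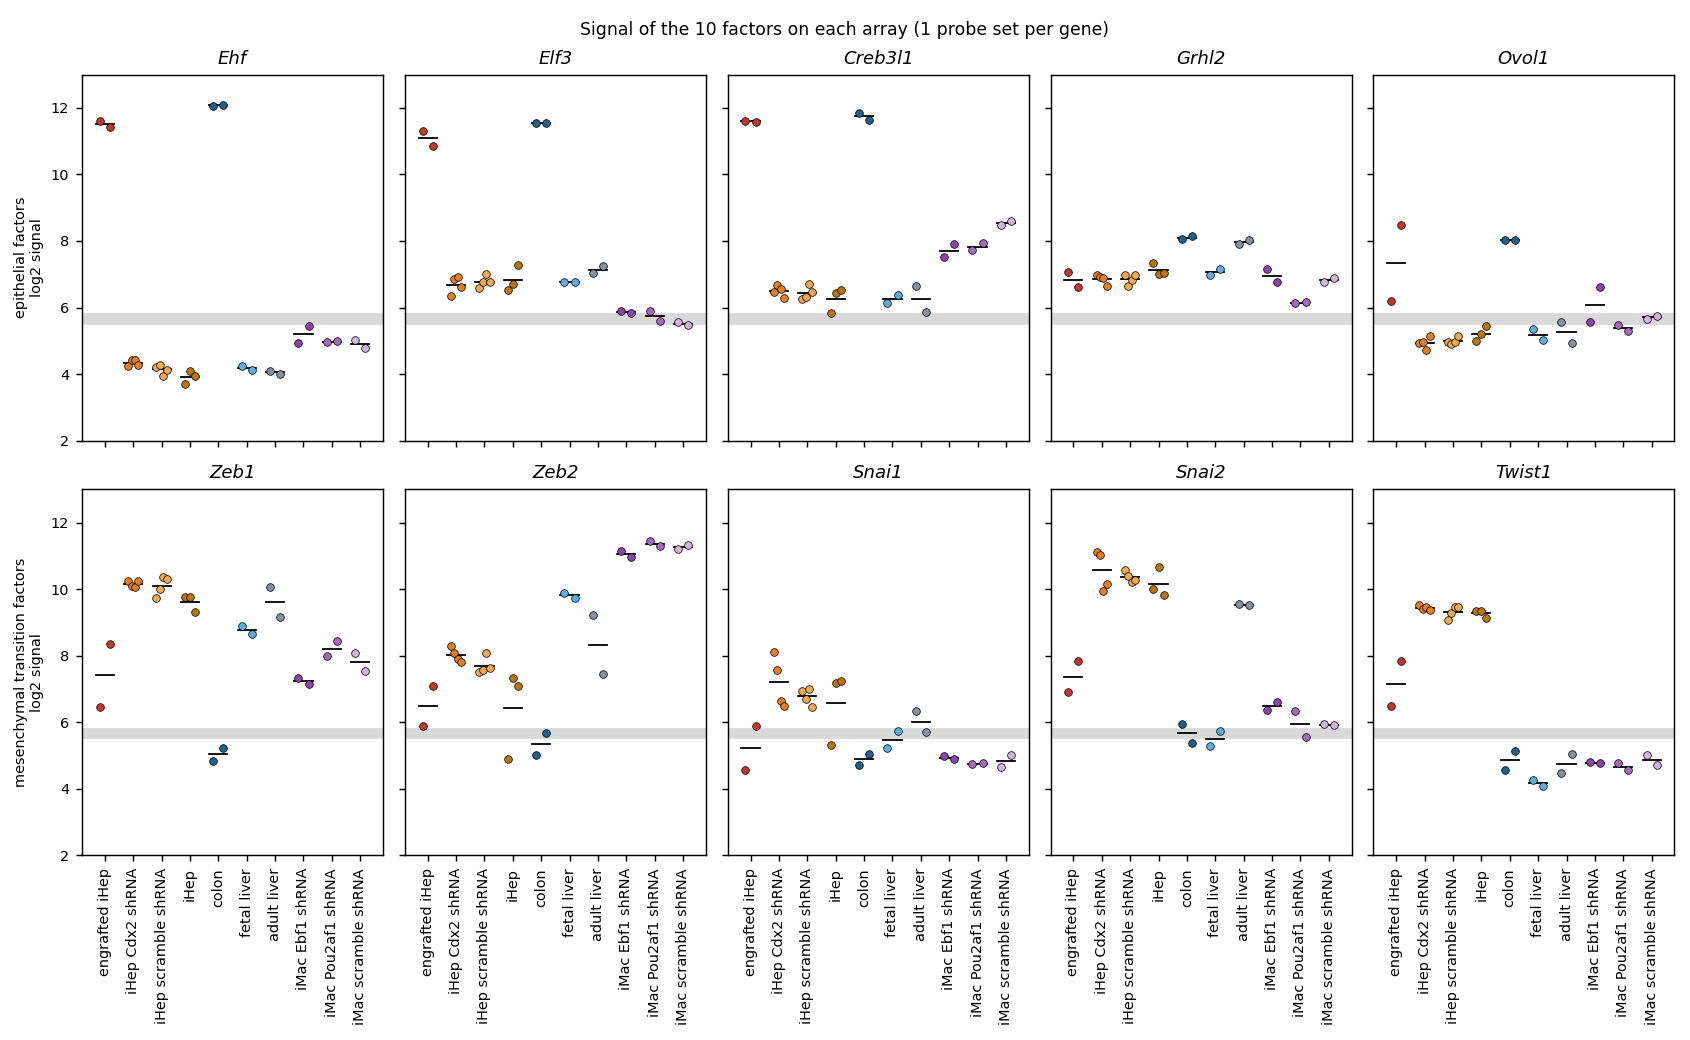
Log2 signal of the 10 factors on each of the 25 arrays, with 1 point per array, a black bar at the group mean, and a grey band for the range of the arrays' 40th percentiles. Ehf, Elf3 and Creb3l1 stand between 10.86 and 12.09 in engrafted iHeps and colon and lower in the other groups, and Snai2 and Twist1 are highest in the cultured iHep groups.

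Engrafted iHeps were compared with cultured iHeps. The groups differ by the injured colon, 12 days in an animal and sorting, which cannot be told apart here. Of the 10 factors, 7 passed the test, 4 epithelial factors higher and 3 mesenchymal factors lower, where 48% of the 15266 genes tested passed in either direction, 18.2% higher and 29.7% lower. The median log2 fold change was 4.25 over the 5 epithelial factors and -2.12 over the 5 mesenchymal factors, beside -0.22 over all genes tested.

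Ehf, an ETS factor of glandular epithelium, had log2 signals of 11.61 and 11.44 in engrafted iHeps, against 3.71, 4.10 and 3.96 in cultured iHeps. The cultured arrays lay under the 40th percentile, and the groups were far apart. The log2 fold change was 7.60 ± 0.19 (adjusted p = 3.07e-08). Creb3l1, a secretory pathway factor, had 11.61 and 11.58 in engrafted iHeps, against 5.83, 6.43 and 6.52 in cultured iHeps. Its groups did not overlap, with a log2 fold change of 5.33 ± 0.29 (adjusted p = 1.2e-06). Elf3, an ETS factor of gut epithelium, had 11.31 and 10.86 in engrafted iHeps, against 6.52, 6.70 and 7.28 in cultured iHeps. Every engrafted array was again above every cultured one, by 4.25 ± 0.26 on the log2 scale (adjusted p = 2.48e-06). These 3 factors also passed with either engrafted array left out, when the array that is left is assumed to vary like the other groups, as in every fit here that leaves a group with 1 array.

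Ovol1, a zinc finger repressor of Zeb1, had 6.19 and 8.49 in engrafted iHeps, against 5.00, 5.19 and 5.44 in cultured iHeps. The engrafted arrays were far apart from each other and both above the cultured ones, by 2.13 ± 0.54 (adjusted p = 0.00909). Without engrafted replicate 2 the log2 fold change was 0.98 (adjusted p = 0.0257), and without replicate 1 it was 3.28. The second Ovol1 probe set, 1419051_at, gave closer engrafted values of 6.89 and 7.53, against 4.72, 4.11 and 4.67 in cultured iHeps, and a log2 fold change of 2.71 ± 0.27.

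Grhl2, a grainyhead factor of epithelial junction genes, depended on the probe set. Its brightest, 1452643_at, had 7.06 and 6.60 in engrafted iHeps, against 7.35, 7.00 and 7.05 in cultured iHeps, and did not pass the test (log2 fold change -0.30, adjusted p = 0.269). Probe set 1427046_at had 9.14 and 7.17 in engrafted iHeps, against 6.70, 6.18 and 6.46 in cultured iHeps, and was higher by 1.71 ± 0.46 (adjusted p = 0.0123). Colon was the highest of the 10 groups on both probe sets, with 11.03 and 10.81 on 1427046_at. Ehf had 1 dissenting probe set as well, 1447760_x_at, with 4.35 and 4.74 in engrafted iHeps, against 5.61, 5.51 and 5.49 in cultured iHeps, a log2 fold change of -0.99 near the 40th percentile. The 2 further Ehf probe sets followed the main one, at 6.48 and 7.64.

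On the mesenchymal side, Snai2, a repressor of Cdh1 in neural crest and fibroblasts, had 6.90 and 7.84 in engrafted iHeps, against 10.00, 10.67 and 9.82 in cultured iHeps. The groups did not overlap, and the log2 fold change was -2.79 ± 0.35 (adjusted p = 0.000204). This probe set is of a type that can cross-hybridise. Its partner, 1418673_at, had 5.63 and 5.28 in engrafted iHeps, against 8.11, 8.84 and 7.79 in cultured iHeps, a log2 fold change of -2.79 as well. Zeb1, a repressor of epithelial junction genes, had 6.47 and 8.35 in engrafted iHeps, against 9.78, 9.78 and 9.30 in cultured iHeps. Both engrafted arrays were lower, with a log2 fold change of -2.21 ± 0.49 (adjusted p = 0.00478), and probe set 1443005_at was lower too (-1.15). Probe set 1446127_at went the other way without passing, with 5.87 and 5.23 in engrafted iHeps and a mean of 4.63 in cultured iHeps. Twist1, the helix-loop-helix factor, had 6.49 and 7.83 in engrafted iHeps, against 9.36, 9.35 and 9.14 in cultured iHeps. It fell by 2.12 ± 0.37 (adjusted p = 0.00132), with no overlap.

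Snai1, the founding member of the Snail repressors, and Zeb2, the partner of Zeb1, did not pass. Snai1 had 4.58 and 5.89 in engrafted iHeps, against 5.31, 7.19 and 7.25 in cultured iHeps (log2 fold change -1.35, adjusted p = 0.0854). Zeb2 had 5.88 and 7.08 in engrafted iHeps, against 4.91, 7.32 and 7.08 in cultured iHeps (log2 fold change 0.04, adjusted p = 0.967). For both factors cultured replicate 1, which also had the fewest fibroblast markers above the 40th percentile (1 of 7, against 5 of 7 on each other cultured array), was the low array. Without that array Snai1 passed, at -1.99 (adjusted p = 0.00518), and it passed at -2.01 without engrafted replicate 2 (adjusted p = 0.0373). Zeb2 did not pass without either array.

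Fibroblast, leukocyte and macrophage markers moved with the mesenchymal factors between the engrafted arrays, replicate 2 being higher for the marker means and for each of the 5 mesenchymal factors on the probe set used. Snai2 on 1418673_at (5.63 and 5.28) and Zeb1 on 1446127_at (5.87 and 5.23) were not higher on replicate 2. Zeb2 was not higher there on 1458941_at (4.78 and 4.55) or on 1454200_at (5.56 and 4.14). Without engrafted replicate 2 the log2 fold changes were -3.15 for Zeb1, -3.27 for Snai2 and -2.79 for Twist1, and without replicate 1 they were -1.26, -2.32 and -1.45, each past the test. The markers' part in the size of these differences was not tested further. No call among the 7 was lost under any alternative run.

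**Figure D2:**
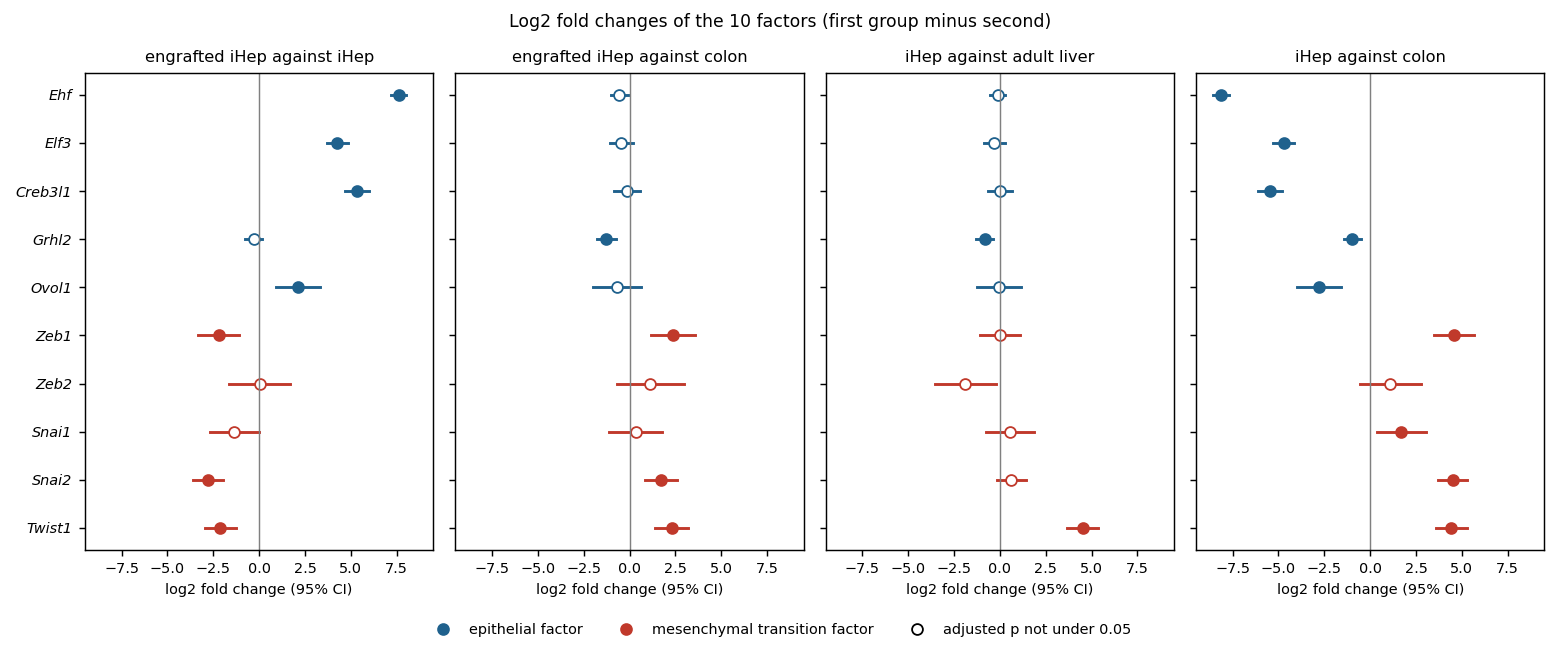
Log2 fold changes of the 10 factors with 95% confidence intervals (CI) in 4 comparisons, the first group named minus the second, with filled points for genes past the test. In engrafted iHeps against cultured iHeps the epithelial factors lie to the right and the mesenchymal ones to the left, apart from Grhl2 (-0.30) and Zeb2 (0.04), and in cultured iHeps against colon all 5 epithelial factors lie to the left.

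Relatives of these factors and genes of epithelial and mesenchymal identity were read from lists. Of 18 epithelial adhesion and surface genes tested, 13 were higher and 0 lower in engrafted iHeps, with a median log2 fold change of 2.84 beside -0.22 over all genes. Epcam, an epithelial adhesion molecule, averaged 13.73 in engrafted iHeps and 8.15 in cultured iHeps (5.58 ± 0.73). The tight junction genes Tjp3 and Cldn7 rose by 5.51 and 4.80, and the polarity gene Crb3 by 4.41. Cdh1 itself, E-cadherin, averaged 12.75 in engrafted iHeps and 12.54 in cultured iHeps and did not pass (0.20, adjusted p = 0.773). Of 10 other epithelial regulators on the array, 8 were tested: 4 rose and 1 fell, led by Spdef, a goblet cell factor (3.92), and Esrp1, an epithelial splicing regulator (3.38), while Grhl1 fell by 1.22.

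Of 17 mesenchymal genes, 2 rose and 3 fell, where 18.2% of all genes rose and 29.7% fell, so neither share is above that of all genes. Cdh2, N-cadherin, averaged 6.16 in engrafted iHeps and 11.09 in cultured iHeps (-4.93), S100a4 fell by 2.81, and Vim, the intermediate filament vimentin, fell by 2.54. Adult liver averaged 11.97 for Cdh2. The collagens Col3a1 and Col1a1 rose by 4.03 and 3.39. Col1a1 stood at 7.82 and 12.82 on the 2 engrafted arrays, and its groups overlapped. Of 7 other mesenchymal regulators tested, Prrx2, a homeobox factor of mesenchyme, fell by 3.91 and Foxc1, a forkhead factor, rose by 0.92. In the transforming growth factor beta (TGF beta) pathway, which can induce the mesenchymal factors, 2 of 12 genes were higher and 3 lower. Neither share is above that of all genes, 18.2% higher and 29.7% lower. The receptors Tgfbr2 and Tgfbr1 fell by 2.90 and 2.08, while the ligand Tgfb1 rose by 1.57 and Tgfbi, an extracellular matrix gene, by 2.40.

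**Figure D3:**
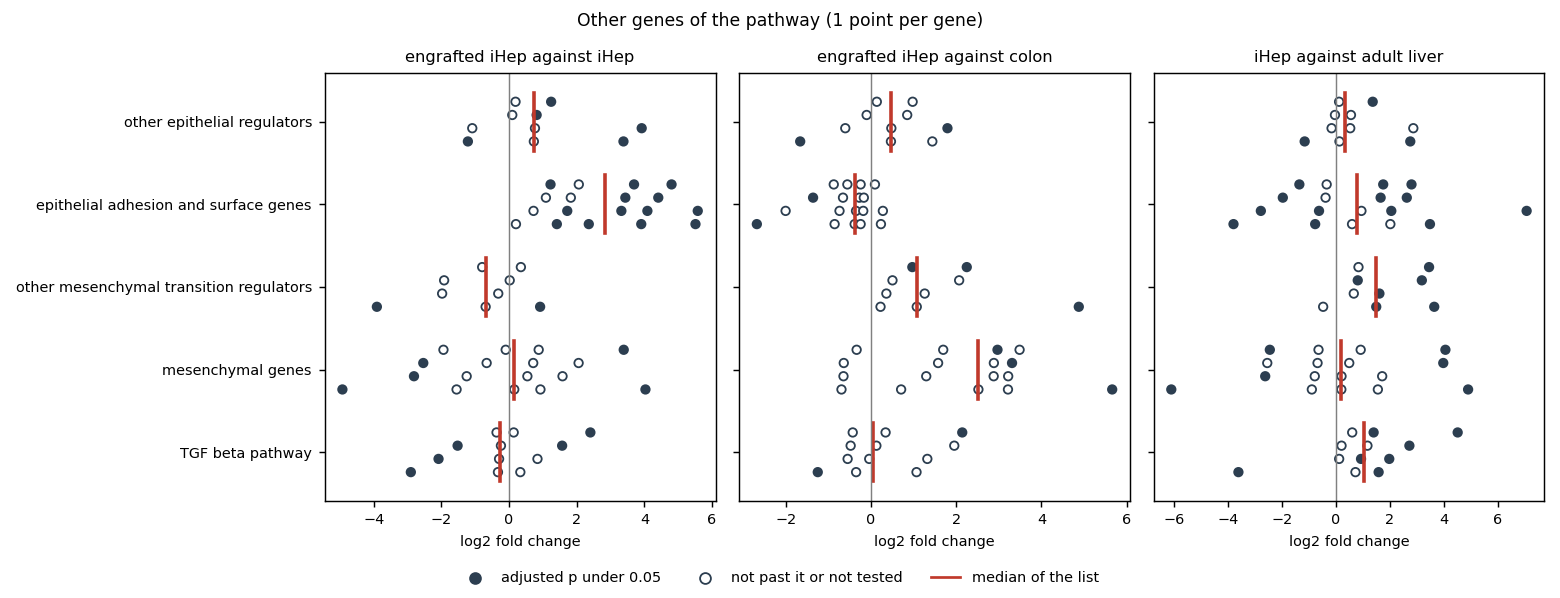
Log2 fold changes of the genes of 5 lists in 3 comparisons, with 1 point per gene, filled where past the test, and a red line at each list's median. In engrafted iHeps against cultured iHeps the adhesion and surface genes lie mostly to the right, with a median of 2.84, and the mesenchymal genes fall on both sides of 0.

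Engrafted iHeps were also set against colon crypts, the tissue they had entered, on the same 2 engrafted arrays. Of the 10 factors 4 passed, where 16.8% of genes passed, 7.1% higher and 9.66% lower in engrafted iHeps. Zeb1 had 6.47 and 8.35 in engrafted iHeps, against 4.85 and 5.24 in colon, higher by 2.36 ± 0.54 (adjusted p = 0.017). Twist1 had 6.49 and 7.83 in engrafted iHeps, against 4.58 and 5.15 in colon, higher by 2.30 ± 0.41 (adjusted p = 0.00586). Snai2 had 6.90 and 7.84 in engrafted iHeps, against 5.96 and 5.38 in colon, higher by 1.70 ± 0.39 (adjusted p = 0.0173). So on the probe sets used 3 mesenchymal factors that were lower than in cultured iHeps were still above colon, with no overlap.

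Fibroblast markers averaged 5.38 and 8.52 on the engrafted arrays, against 5.64 and 5.88 in colon, and their part in these results was not tested. Without engrafted replicate 2, where the lone engrafted array is assumed to vary like the other groups, the log2 fold changes were 1.42 for Zeb1 (adjusted p = 0.0398), 1.62 for Twist1 (adjusted p = 0.0114) and 1.23 for Snai2 (adjusted p = 0.0677). Without colon replicate 1, 1 factor passed (Grhl2), and without colon replicate 2, 1 factor passed (Twist1). On its second probe set Snai2 had 5.63 and 5.28 in engrafted iHeps, against 4.90 and 4.98 in colon, and did not pass. Of 3 Zeb1 probe sets tested 1 was higher than colon. Zeb1 had 5.19 and 5.35 in engrafted iHeps on 1443005_at, against a colon mean of 4.86, and 5.87 and 5.23 on 1446127_at, against 5.12. On 1420243_at it had 2.71 and 2.81, against 2.91.

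Among epithelial factors Ehf, Elf3 and Creb3l1 did not pass against colon, with log2 fold changes of -0.55 (95% CI -1.02 to -0.08, adjusted p = 0.105), -0.46 (-1.09 to 0.17) and -0.15 (-0.85 to 0.56). Every engrafted array was below every colon array for all 3. Grhl2 had 7.06 and 6.60 in engrafted iHeps, against 8.06 and 8.15 in colon, lower at a log2 fold change of -1.27 ± 0.23 (adjusted p = 0.00675). Its probe sets 1427046_at and 1431877_a_at were lower too, at -2.76 and -2.12. Ovol1 did not pass (-0.68, adjusted p = 0.458), though it passed at -1.83 without engrafted replicate 2 (adjusted p = 0.00653).

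Each engrafted array was placed on a scale from the cultured iHep mean (0) to the colon mean (1) of a probe set. On the probe sets used for the genes Creb3l1 lay at 0.98 and 0.97, Ehf at 0.94 and 0.92 and Elf3 at 0.95 and 0.85. Snai2 lay at 0.73 and 0.52, Zeb1 at 0.69 and 0.28 and Twist1 at 0.63 and 0.33. Other probe sets gave other positions: Snai2 lay at 0.79 and 0.90 on 1418673_at and Zeb1 at 0.79 and 0.69 on 1443005_at. Grhl2 had no position on 1452643_at, whose ends were less than 1 log2 unit apart, and lay at 0.60 and 0.16 on 1427046_at, 0.15 and 0.30 on 1431877_a_at and 0.65 and 0.16 on 1431878_at, so that the epithelial factors did not move as a group. The positions were not tested and do not rank the genes, because a low end may be background: the cultured iHep mean of Ehf was 3.92, and the colon means of Zeb1, Twist1 and Snai2 were 5.04, 4.86 and 5.67. The 2 arrays were wide apart for Ovol1 (0.35 and 1.16), Snai1 (1.18 and 0.41) and Zeb2 (0.52 and -0.60).

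**Figure D4:**
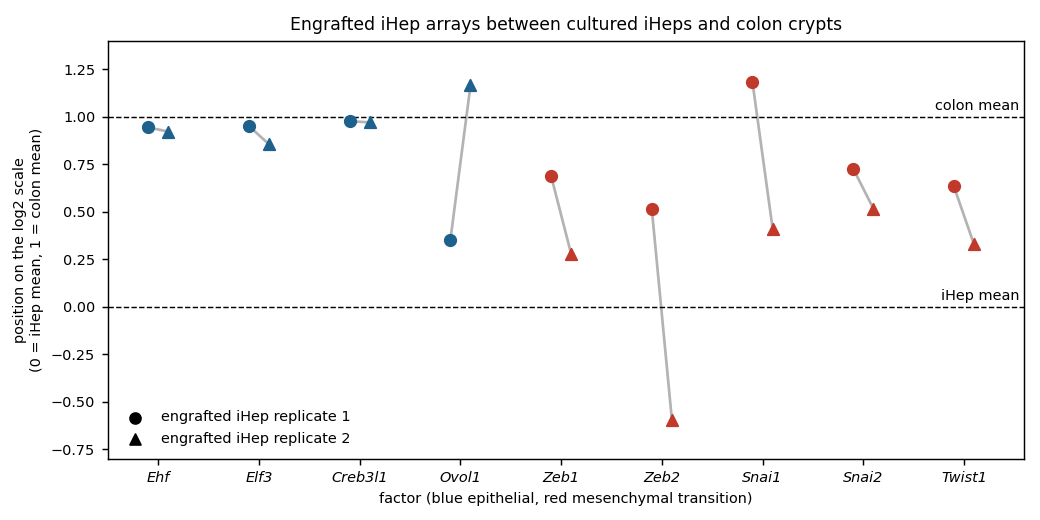
Position of the 2 engrafted iHep arrays on the log2 scale between the cultured iHep mean (0) and the colon mean (1), with circles for replicate 1 and triangles for replicate 2. Ehf, Elf3 and Creb3l1 lie between 0.85 and 0.98 on the probe sets plotted, and the low end of the scale may be background for Ehf at 0 and for Zeb1, Snai2 and Twist1 at 1.

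Of 7 other mesenchymal regulators tested against colon, 3 were higher in engrafted iHeps, namely Foxc1 (4.88), Twist2 (2.25) and Snai3 (0.97), 0 were lower and 4 did not pass, where 7.1% of all genes were higher and 9.66% lower. Of 17 mesenchymal genes 3 were higher and 0 lower, namely Fn1 (fibronectin, 5.66), Vim (3.31) and Cdh2 (2.97). Adult liver averaged 13.41 for Fn1 and 11.97 for Cdh2. Of 18 adhesion and surface genes 0 were higher and 2 lower, Marveld2 (tricellulin, -2.68) and Ap1m2, a polarised sorting adaptor (-1.36), with a median of -0.37.

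Cultured iHeps were compared with adult liver, the tissue they were made to match. The fibroblasts they came from were not analysed here. Of the 10 factors 2 passed, where 55.9% of genes passed, 37.8% higher and 18.2% lower in iHeps. Elf3 (6.83 in iHeps, 7.14 in adult liver) and Creb3l1 (6.26 and 6.25) did not pass. Neither did Ehf (3.92 and 4.05) or Ovol1 (5.21 and 5.25). The Ehf and Ovol1 means lay under 5.52, the lowest filter level of any array, and both genes were tested because of other groups. Their results may compare background with background and cannot show that the groups are alike. Twist1 had 9.36, 9.35 and 9.14 in iHeps, against 4.48 and 5.04 in adult liver, higher by 4.52 ± 0.37 (adjusted p = 6.52e-06). Grhl2 had 7.35, 7.00 and 7.05 in iHeps, against 7.92 and 8.02 in adult liver, lower at a log2 fold change of -0.83 ± 0.21 (adjusted p = 0.0074). Of its 4 probe sets 1 passed, and with their mean the Grhl2 call was lost (-0.36, adjusted p = 0.171).

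The other mesenchymal factors did not pass. Zeb1 had 9.78, 9.78 and 9.30 in iHeps, against 10.07 and 9.16 in adult liver, a log2 fold change of 0.00 (95% CI -1.10 to 1.10). Snai2 had 10.00, 10.67 and 9.82 in iHeps, against 9.55 and 9.52 in adult liver (0.63, adjusted p = 0.161), and its second probe set was higher in iHeps by 1.19 ± 0.29 (adjusted p = 0.00605). Snai1 had 5.31, 7.19 and 7.25 in iHeps, against 6.35 and 5.70 in adult liver (0.56, adjusted p = 0.449). So iHep and adult liver arrays overlapped for Zeb1 and Snai1 and not for Snai2. Zeb2 averaged 6.44 in iHeps and 8.33 in adult liver (-1.90, adjusted p = 0.0526), and passed under 7 alternatives, with adjusted p between 0.00448 and 0.0476. Fibroblast markers averaged 5.09, 6.97 and 7.38 in iHeps, against 8.12 and 7.39 in adult liver, the lower liver array being level with the highest iHep array. Among them Dcn averaged 5.86 in iHeps and 11.95 in adult liver and Lum 4.26 and 6.70. Col1a1 averaged 6.93 in iHeps and 6.01 in adult liver and Col1a2 9.09 and 8.89, so the list was not uniform. The 6 leukocyte markers averaged 4.84 to 5.02 in iHeps, against 10.32 and 8.44 in adult liver, and the 4 stellate cell markers 5.37 to 5.44 in iHeps, against 7.61 to 7.68 in adult liver. Their part in the liver signals was not tested.

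The Zeb1 result turned on the probe set. On 1446127_at Zeb1 had 4.79, 4.58 and 4.50 in iHeps, against 7.68 and 8.37 in adult liver (-3.40 ± 0.35, adjusted p = 2.26e-05). The mean of the 4 Zeb1 probe sets gave -0.79 (adjusted p = 0.0105). Zeb2 on 1458941_at was lower in iHeps (-2.31 ± 0.21), with 5.66, 5.48 and 5.79 in iHeps, against 8.05 and 7.87 in adult liver.

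Of 7 other mesenchymal regulators tested, 6 were higher in iHeps than in adult liver and 0 lower, where 37.8% of all genes were higher and 18.2% lower, with Prrx2 at 3.65, Foxc1 at 3.46, Prrx1 at 3.19 and Twist2 at 1.62. Among 18 adhesion and surface genes 7 were higher, about the share over all genes, and 6 lower, from Krt19, a biliary and gut keratin (7.07), Epcam (3.49) and Cldn7 (2.81) to Marveld2 (-3.79). Cdh1 was higher in iHeps, at 12.54 against 10.78 in adult liver (1.76, adjusted p = 0.0172). Of 17 mesenchymal genes 3 were higher and 3 lower, among them Vim at 13.65 in iHeps and 8.74 in adult liver (4.91), S100a4 (3.99), Lox (4.07) and Dcn, the proteoglycan decorin (-6.09).

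Against fetal liver 3 of 10 factors passed, where 33% of genes passed, 19.9% higher and 13.1% lower. Ehf (3.92 in iHeps, 4.19 in fetal liver) and Ovol1 (5.21 and 5.19) averaged under the filter in both groups, so their results cannot show likeness. Twist1 was higher in iHeps by 5.11 ± 0.37 and Snai2 by 4.66 ± 0.35. Fetal liver had 5.28 and 5.74 for Snai2 and 4.26 and 4.08 for Twist1, below every iHep array for both genes. Zeb2 was lower in iHeps, averaging 6.44 in iHeps and 9.82 in fetal liver (-3.38 ± 0.74, adjusted p = 0.0061), on 4 of its 4 tested probe sets. Zeb2 is known from blood cells, and the leukocyte and erythroid marker means were at most 5.02 and 6.13 in iHeps, against 11.02 and 11.42 and against 10.59 and 10.84 in fetal liver. Their part in the Zeb2 signal was not tested. Of 7 other mesenchymal regulators 5 were higher in iHeps and 0 lower, and of 18 adhesion and surface genes 9 were higher and 1 lower.

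In cultured iHeps against colon 9 of 10 factors passed, where 53.6% of genes passed, 32.3% higher and 21.3% lower. The 5 epithelial factors were lower in iHeps, from Ehf (-8.15 ± 0.19), Creb3l1 (-5.48 ± 0.29) and Elf3 (-4.71 ± 0.26) to Ovol1 (-2.82 ± 0.54) and Grhl2 (-0.97 ± 0.21). Zeb1 (4.57 ± 0.49), Snai2 (4.49 ± 0.35), Twist1 (4.42 ± 0.37) and Snai1 (1.70 ± 0.59) were higher. The Snai1 call, with an adjusted p of 0.0344, was lost without any 1 of cultured replicates 2 and 3 or either colon array, with adjusted p between 0.0929 and 0.16. Zeb2 did not pass (1.08, adjusted p = 0.244), but passed without cultured replicate 1 (1.85, adjusted p = 0.0239).

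Every Grhl2 probe set was lower in iHeps than in colon, 1427046_at at -4.47, so that 1452643_at gave the smallest difference. Of 18 adhesion and surface genes, 14 were lower in iHeps and 0 higher, where 21.3% of all genes were lower and 32.3% higher. Of 17 mesenchymal genes 6 were higher and 3 lower, about the shares over all genes. Cdh2 (7.89) and Fn1 (6.91) were the furthest above colon on that list. Neither passed between iHeps and adult liver, which averaged 11.97 for Cdh2 and 13.41 for Fn1, against 11.09 and 12.77 in iHeps. Cdh1 averaged 12.54 in iHeps and 13.02 in colon (-0.48, adjusted p = 0.473).

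Tissues were also set against each other. Colon against adult liver passed for 7 of 10 factors, where 60.7% of genes passed, 35.9% higher and 24.8% lower: Ehf (8.02), Creb3l1 (5.49), Elf3 (4.40) and Ovol1 (2.77) were higher in colon, and Zeb1 (-4.57), Snai2 (-3.86) and Zeb2 (-2.98) lower. The Zeb2 call was lost without colon replicate 1 (-2.65, adjusted p = 0.0637) or adult liver replicate 1 (-2.10, adjusted p = 0.0919), and Grhl2 passed with the mean of its probe sets (1.96, adjusted p = 5.82e-05). Twist1 had 4.58 and 5.15 in colon, against 4.48 and 5.04 in adult liver, and did not pass (0.10), with every array under the filter. Fetal against adult liver passed for 2 factors, where 49.3% of genes passed, 31.1% higher and 18.2% lower: Snai2 averaged 5.51 in fetal liver and 9.53 in adult liver (-4.03 ± 0.39), and Grhl2 was lower (-0.89 ± 0.23). The Grhl2 call was lost without fetal liver replicate 1 (adjusted p = 0.0609) and with the mean of its probe sets (adjusted p = 0.219). In both livers Ehf (4.19 fetal, 4.05 adult), Ovol1 (5.19 and 5.25) and Twist1 (4.17 and 4.76) averaged under the filter, so their results cannot show likeness. These tissue comparisons share arrays with those above.

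**Figure D5:**
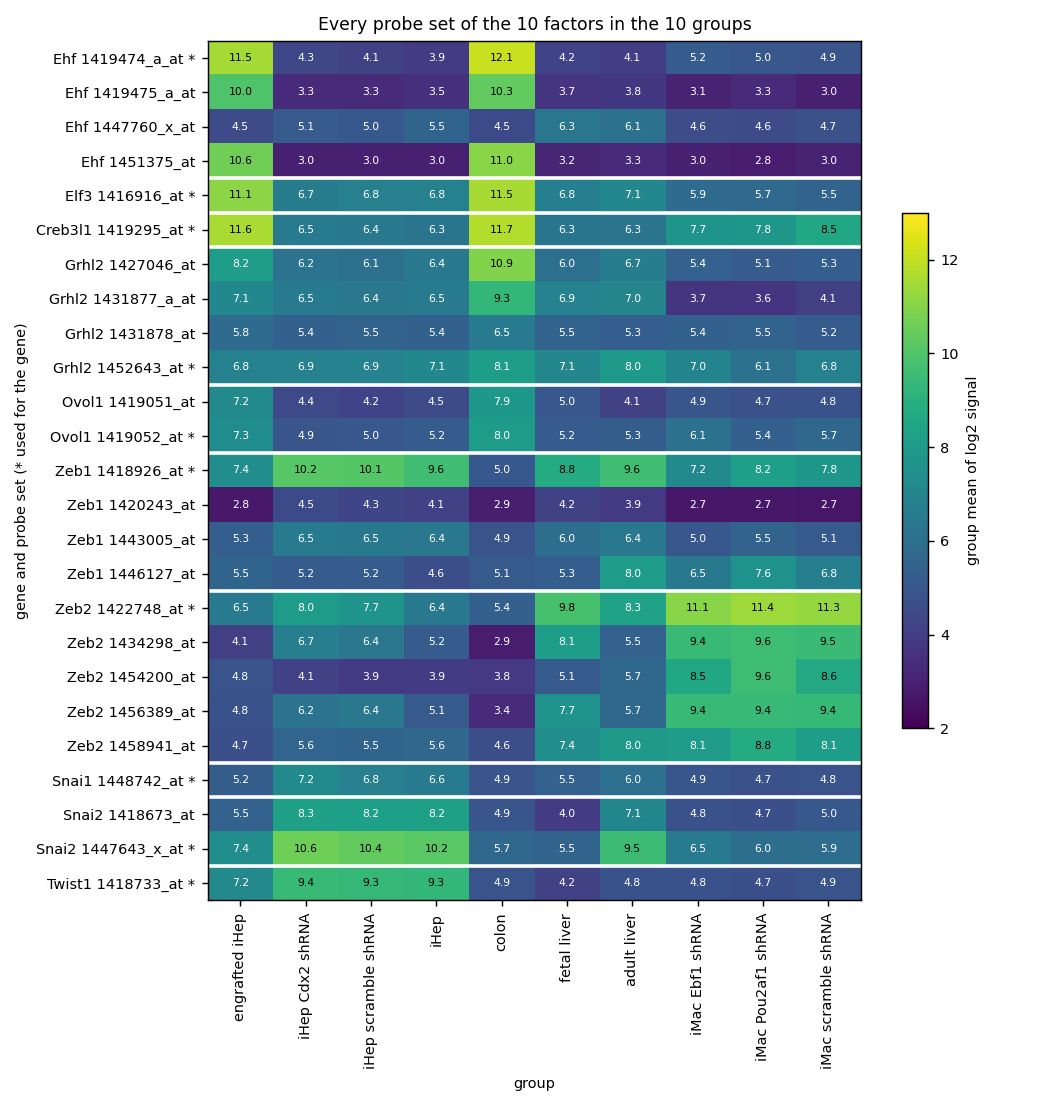
Group means of log2 signal for each of the 25 probe sets in the 10 groups, with the printed number repeating the colour and a star on the probe set used for the gene. Within a row the order of groups can differ between probe sets of 1 gene: Zeb1 1418926_at averages 9.62 in both cultured iHeps and adult liver, while 1446127_at averages 4.63 in cultured iHeps and 8.02 in adult liver.

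With each probe set fitted as a feature of its own, the count of factors with at least 1 probe set past the test was higher in 7 of the 11 comparisons and equal in 4, and a gene with several probe sets has more chances to pass. In engrafted iHeps 9 of 10 factors did against cultured iHeps, where 48% of all probe sets passed, and 4 against colon, where 17.7% passed. In cultured iHeps 5 did against adult liver (55.1% of all probe sets), 4 against fetal liver (26.6%) and 10 against colon (54.1%). The counts are of factors and the percentages are of single probe sets, so they are unlike measures and cannot be set against each other. Against adult liver Twist1 passed on its 1 probe set, Snai2 on 1 of 2 tested, Zeb1 on 1 of 3, and Zeb2 and Grhl2 on 1 of 4 each. The counts were 8 for colon against adult liver (62.9%) and 5 for fetal against adult liver (47.6%). Hairpins gave 0 for Cdx2 (1.41%), 0 for scramble against untransduced iHeps (0.0856%), 1 for Ebf1 (9.37%) and 3 on the arrays labelled Pou2af1 shRNA (7.63%). Zeb2 entered the engrafted count through 1458941_at alone, with 4.78 and 4.55 in engrafted iHeps, against 5.66, 5.48 and 5.79 in cultured iHeps.

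In cultured iHeps the hairpin against Cdx2, the intestinal homeobox factor, was compared with the scramble hairpin. Cdx2 had 7.78, 8.02, 8.01 and 8.03 in Cdx2 shRNA iHeps, against 9.14, 9.42, 8.96 and 8.98 in scramble iHeps (-1.16 ± 0.12, adjusted p = 0.00397). Of the 8 factors tested 0 passed, where 2.21% of genes passed, 0.534% higher and 1.68% lower. At an unadjusted p under 0.05 in limma, 0 of the 8 passed too. With the replicate number as a block 0 factors passed as well, while limma called 760 genes with the block and 302 without it.

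The widest confidence interval among the 8 was that of Snai1, with 8.12, 7.58, 6.64 and 6.50 in Cdx2 shRNA iHeps, against 6.94, 6.71, 7.00 and 6.47 in scramble iHeps (0.43, 95% CI -0.33 to 1.20). Zeb2 had 8.29, 8.08, 7.89 and 7.80 in Cdx2 shRNA iHeps, against 7.51, 7.57, 8.07 and 7.62 in scramble iHeps (0.32, adjusted p = 0.345). Ehf and Ovol1 stayed under the filter, with Ehf between 4.23 and 4.42 in Cdx2 shRNA iHeps and between 3.94 and 4.27 in scramble iHeps. Among relatives, Spdef rose by 0.84 and Grhl3 fell by 1.42. Scramble iHeps against untransduced iHeps also gave 0 calls among 8 tested factors, where 0.317% of genes passed, 0.26% higher and 0.0577% lower. At an unadjusted p under 0.05 in limma 2 passed, Zeb1 (0.49) and Zeb2 (1.26). Twist1 had 9.07, 9.27, 9.45 and 9.46 in scramble iHeps, against 9.36, 9.35 and 9.14 in untransduced iHeps.

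In induced macrophages Zeb2, which is active in myeloid cells, was the high factor, at 10.96 to 11.45 on the 6 arrays, and Ehf, Snai1 and Twist1 were under the filter. Ebf1 averaged 7.31 in Ebf1 shRNA macrophages and 8.35 in scramble macrophages (-1.04 ± 0.11, adjusted p = 0.00389). Pou2af1 was not lower on the arrays labelled Pou2af1 shRNA, with 11.34 and 11.26, against 11.25 and 11.06 on the scramble arrays (0.14, adjusted p = 0.495), so no direction is tied to its loss.

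Of 7 factors tested, 1 passed with the Ebf1 hairpin, where 14.4% of genes passed, 6.21% higher and 8.16% lower. On the arrays labelled Pou2af1 shRNA 2 passed, where 12% of genes passed, 6.8% higher and 5.15% lower. Creb3l1 had 7.52 and 7.90 in Ebf1 shRNA macrophages and 7.74 and 7.93 on the arrays labelled Pou2af1 shRNA, against 8.48 and 8.60 in scramble macrophages. The log2 fold changes were -0.83 ± 0.15 (adjusted p = 0.0217) for Ebf1 and -0.70 ± 0.15 (adjusted p = 0.036) for the arrays labelled Pou2af1 shRNA. Grhl2 had 6.13 and 6.16 on the arrays labelled Pou2af1 shRNA, against 6.78 and 6.89 in scramble macrophages (-0.69 ± 0.15, adjusted p = 0.0341). Both comparisons use the same 2 scramble arrays. The Pou2af1 calls were lost when any 1 of the 4 arrays was left out, and the Creb3l1 call for Ebf1 when Ebf1 replicate 1 (adjusted p = 0.0637) or either scramble array was (0.0898 and 0.0981). On the arrays labelled Pou2af1 shRNA, Zeb2 was higher on 1454200_at (0.95 ± 0.13) and 1458941_at (0.63 ± 0.12) and Zeb1 on 1446127_at (0.83 ± 0.16), in the fit of every probe set, while the Zeb2 and Zeb1 probe sets used for the genes did not pass. In that fit Creb3l1 did not pass on the arrays labelled Pou2af1 shRNA (adjusted p = 0.0516). Of 17 mesenchymal genes on the array, whether or not past the filter, 5 were higher and 1 lower with the Ebf1 hairpin. Over all genes tested 6.21% were higher and 8.16% lower. Fn1 (2.81 ± 0.13) and Col5a1, a fibrillar collagen (1.80), led the list, and Foxc1 was higher by 1.35. What lies behind these differences was not tested.

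Across the 10 groups the epithelial factors had colon first and, for Ehf, Elf3, Creb3l1 and Ovol1, engrafted iHeps next, with arrays that overlapped colon for Ovol1 alone of these 4. The next group stood at 5.20 for Ehf (Ebf1 shRNA macrophages), 7.14 for Elf3 (adult liver) and 8.54 for Creb3l1 (scramble macrophages). On the probe sets used, the 3 cultured iHep groups had the highest means for Zeb1, Snai1, Snai2 and Twist1. The arrays of neighbouring cultured groups overlapped for each of these factors. Adult liver followed for Zeb1, Snai1 and Snai2, and engrafted iHeps for Twist1. Adult liver arrays overlapped untransduced iHeps for Zeb1, with a mean of 9.62 in both, and for Snai1. Zeb2 had its own order, with the macrophage groups first, then fetal liver (9.82) and adult liver (8.33), and colon last (5.35).

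Over the 10 group means Ehf and Ovol1 correlated at a Pearson r of 0.97, Ehf and Creb3l1 at 0.96, and Snai1 and Snai2 at 0.93. Ovol1 and Zeb1 ran opposite, at -0.90, and Zeb1 and Zeb2 were nearly unrelated, at 0.09. Among 9832 genes whose group means span at least 2 log2 units, the closest to Ehf was Ern2 (0.995), to Elf3 Serinc2 (0.996), to Creb3l1 9130208D14Rik (0.987), to Grhl2 Adgrv1 (0.942) and to Ovol1 Crybg2 (0.988). On the mesenchymal side the closest were Rbm28 to Zeb1 (0.965), Tacc1 to Zeb2 (0.981), Ms4a4b to Snai1 (0.986), Nox4 to Snai2 (0.977) and Eda2r to Twist1 (0.991). These describe 10 means in which colon and engrafted iHeps, or the 3 cultured iHep groups, carry most of the span.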

How the data were processed

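Log2 signals of 45101 probe sets on 25 arrays were deposited by the authors after RMA, per the submitters' processing notes, with the version not given in the sources used here. Of these, 34945 carry 1 symbol, 932 several, 9160 none and 64 are controls. The columns held log2 values of 2.05 to 15.11, with medians of 6.11 to 6.30, and 0 columns of per-sample values were left unused.

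From these values limma 3.58.1 (R 4.3.3; lmFit and eBayes) was fitted on 1 probe set per gene, the one with the highest mean, in 4 models: the iHep, engrafted iHep, colon and liver arrays (15266 genes tested, 6 residual degrees of freedom), Cdx2 and scramble shRNA iHeps (13658, 6), the 3 cultured iHep groups for scramble against untransduced iHeps (13868, 8), and the macrophage arrays (12483, 3). Figures used matplotlib 3.10.9 (Python 3.11.15). The fit was tested on simulated data. Array number, 2 to 4 per group, limits the precision. Each of the 10 factors is named, and other genes come from lists of regulators, adhesion, mesenchymal and TGF beta genes, with up to 4 named past the test, by the size of the change, and up to 2 not past it; Cdh1, and Vim in engrafted against cultured iHeps, were named beyond this rule after their values were seen. Close patterns were ranked over genes above the 40th percentile on at least 2 arrays whose group means span at least 2 log2 units. Members and lists were chosen with earlier results of these data known.

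Between Cdx2 and scramble shRNA arrays of the same replicate number, deviations from the group means correlated at 0.53, 0.32, 0.58 and 0.44 over genes. Unlike numbers correlated too: Cdx2 shRNA replicate 2 with scramble replicate 1 at 0.41, and replicate 4 with replicate 3 at 0.35. Every combination of replicate 1 or 2 with replicate 3 or 4 was negative. The arrays thus grouped as 1 with 2 and 3 with 4, and the numbers alone do not establish pairs. Alternatives were the filter (none, or the 60th percentile), the mean of the probe sets, a robust trended fit, all 25 arrays in 1 model, repeated quantile normalization, median centring, the replicate number as a block, and each array left out.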

Additional observations from a re-analysis of the deposited data

How the results depend on the processing

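Of 10 factors, the count past the test was 7 in engrafted against cultured iHeps and 7 or 8 under each alternative run, arrays left out included, where it ran from 7 to 8. With 1 array left out the counts ran from 1 to 4 for engrafted iHeps against colon, 2 to 3 for cultured iHeps against adult liver, 3 to 4 against fetal liver, 8 to 10 against colon, 6 to 7 for colon against adult liver, 1 to 2 for fetal against adult liver, 0 to 0 for Cdx2 shRNA and for scramble against untransduced iHeps, 0 to 1 for Ebf1 and 0 to 0 on the arrays labelled Pou2af1 shRNA. The mean of the probe sets turned Grhl2 in engrafted against cultured iHeps to 0.62 (adjusted p = 0.0345) and Zeb1 in cultured iHeps against adult liver to -0.79 (adjusted p = 0.0105), where the count was then 4, against 2. With all 25 arrays in 1 model the count was 0 for Ebf1, against 1. On the arrays labelled Pou2af1 shRNA it was 2, and 0 with no filter, 1 at the 60th percentile, 1 with the mean of the probe sets, 0 with all 25 arrays in 1 model and 1 with the replicate block. The cause was not tested, apart from the probe sets' own disagreement.

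Counts of factors with any called probe set were 5 in cultured iHeps and 5 in fetal liver, both against adult liver, where 1 probe set per gene gave 2 in each. For Ebf1 the count was 1, and 0 with no filter, and on the arrays labelled Pou2af1 shRNA it was 3, and 1 with no filter.

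With the replicate block limma called 760 genes for Cdx2 shRNA, against 302, and 87 for scramble against untransduced iHeps, against 44. The scramble and untransduced iHep arrays share numbers only, with correlations of 0.08, 0.02 and 0.16. The block ended the Snai1 call in cultured iHeps against colon (1.36, adjusted p = 0.0713) and the Grhl2 call on the arrays labelled Pou2af1 shRNA (adjusted p = 0.0589). It changed no other call on the 10 factors.

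Other counts of genes moved by over 1.5 times. All 25 arrays in 1 model gave 5540 genes for engrafted iHeps against colon, against 2558, and 73 for Cdx2 shRNA, 83 for scramble iHeps, 432 for Ebf1 and 315 on the arrays labelled Pou2af1 shRNA, where the separate models gave 302, 44, 1794 and 1492. No filter gave 1120 and 923 for the macrophage comparisons, and the robust trended fit 2859 and 2552. For scramble iHeps the mean of the probe sets gave 13 genes and repeated quantile normalization 23. Leaving out colon replicate 1 or 2 left 774 or 779 genes for engrafted iHeps against colon, and fetal liver replicate 2 left 3008, against 5040, for cultured iHeps against fetal liver. With 1 array left out the genes called ran from 56 to 224 for Cdx2 shRNA, 8 to 525 for scramble iHeps (525 without cultured replicate 3), 507 to 825 for Ebf1 and 356 to 450 on the arrays labelled Pou2af1 shRNA. Median centring shifted the median of all genes by -0.11 in engrafted against cultured iHeps, 0.16 in cultured iHeps against adult liver, 0.13 against colon and 0.11 in fetal against adult liver. With 2 arrays in most groups, a factor near the 40th percentile is measured only weakly. Over the alternatives that keep every array, 765 of the factors' results kept their side of the test, 10 gained a call, 9 lost one and 2 reversed.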
